A study of Mus musculus with 15 samples.

Results

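The E2F and retinoblastoma family was followed in mouse retinal pigment epithelium (RPE) as the 10 genes E2f1 to E2f8, Rb1 and Rbl1, chosen by their symbols. All 10 were listed among the 20910 genes of the count table of cultured RPE cells (mRPE) and among the 25038 genes of the RPE/choroid table, and all 10 passed the filter on low counts in both. The study asked what loss of Prom1, which encodes the cholesterol-binding membrane glycoprotein prominin-1, does to RPE cells. The mRPE libraries comprised WT cells (n = 4) and the Prom1-KO clones KO22 (n = 3) and KO26 (n = 2), and the tissue libraries comprised RPE/choroid of WT mice (n = 3) and of mice labelled Prom1-KO (n = 3).

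The mRPE cells came from pooled C57/BL6J mice and were immortalized with a lentivirus carrying the human papillomavirus E6 and E7 genes. All mRPE groups, WT included, therefore carried E6/E7, and E7 is a viral protein known for binding the retinoblastoma protein and its relatives. Cas9 was then brought in by a lentivirus with puromycin selection, and the labels name a scrambled guide RNA as the control without saying whether the WT libraries had received it. KO22 and KO26 had been given a guide RNA against exon 5 of Prom1, and each is a single clone, so that a clone and the knockout cannot be told apart within either. In the mice, floxed Prom1 (Prom1 fl/fl) was removed by tamoxifen-induced Cre under the Rpe65 promoter, which leaves Prom1 intact in the choroid and in other cells of the dissected tissue. The labels give no age for these mice and do not say whether libraries of 1 group came from separate cultures, so p-values measure only the spread between these libraries, which may be technical.

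Library totals ran from 8076188 to 27537863 counts in mRPE and from 48154444 to 61766179 in RPE/choroid, of which the 10 genes took 2299 to 8013 and 2161 to 3727 counts. Prom1 was not analysed here in mRPE, so the clone labels were not checked against its counts. In RPE/choroid, Prom1 lay at 48.7 to 53.3 CPM (counts scaled to a common library size) in WT and at 35.5 to 49.9 CPM in the labelled Prom1-KO libraries (log2 fold change -0.18, SE 0.16, edgeR adjusted p = 0.824), which did not separate the labels. The RPE/choroid library labelled Prom1-KO replicate 3 stood apart, with 84.2% of its counts from mitochondrial genes against 64.9% to 71.3% in the other libraries. In mRPE, 4 of the 12 listed RPE markers could be tested, with a summed level of 11.8 to 17.4 CPM in WT, while Rpe65, Rlbp1 and Lrat were not analysed here, and the 4 fibroblast markers tested summed to 10932 to 13917 CPM.

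E2F proteins are transcription factors that set the timing of the genes for DNA replication. E2F1, E2F2 and E2F3 activate these genes, E2F4 and E2F5 mostly hold them silent in resting cells together with pocket proteins, E2F6 represses without pocket proteins as part of a Polycomb complex, and E2F7 and E2F8 are atypical repressors that act late in S phase and are themselves targets of E2F. The pocket proteins RB (from Rb1), p107 (from Rbl1) and p130 (from Rbl2) bind E2Fs and block them until cyclin-dependent kinases phosphorylate the pocket protein. The RPE of the adult eye is a resting epithelium, whereas the mRPE line divides in culture.

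Several members of the family carry E2F sites in their own promoters, and the sequences are shown for the members with a match that changed in KO22. RefSeq promoter windows of 250 bases before to 50 bases after the start (build GRCm38.p6) were given for 7 of the 10 genes, in 9 windows. Each was searched on both strands for the E2F site (TTTCCCGC, TTTCGCGC, TTTGCCGC or TTTGGCGC), the CHR element (TTTGAA or TTCGAA), which is bound by the MuvB complex, and the CCAAT box (CCAAT). An E2F site was present in 4 of the 9 windows, those of Rbl1, E2f7, E2f3 and E2f2, against 2.26% of all 32851 windows of 300 bases. The CHR element was present in 3 windows, against 19.2% of all windows, and the CCAAT box in 5, against 37.4%. The windows of E2f1 and E2f6 held none of these letters. E2f4, E2f5 and Rb1 had no entry. A match describes these letters only and does not show that a factor binds there.

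The stretches below run 5′ to 3′ on the strand of the gene, with every match in capitals, and were placed on GRCm39, the build of the count files, by exact match. The Rbl1 stretch (chr2:157046455-157046604, minus strand) ends at position -1 and holds TTTCGCGC at position -18. The E2f7 stretch (chr10:110581080-110581299, plus strand) also ends at position -1, with TTTCCCGC on the other strand at position -198 and CCAAT boxes on the other strand at positions -46 and -14. The E2f3 stretch (chr13:30170047-30170196, minus strand) holds CCAAT boxes at positions -145, -109 and -81, a CHR element at position -23 and an E2F site at position -11. Of these, the CCAAT box at -109 and the E2F site at -11 are on the other strand. For E2f2, 30 bases after the start are shown (chr4:135899605-135899634, plus strand), with TTTGGCGC at position 40. Outside this stretch the same E2f2 window holds a CCAAT box at position -13. The other E2f2 window holds 0 E2F sites, a CHR element at position -31 and 3 CCAAT boxes, and the other E2f3 window holds no match. For E2f8, 30 bases before the start are shown (chr7:48531350-48531379, minus strand), with the CHR element TTTGAA on the other strand at position -20. A CCAAT box on the other strand at position -112 lies outside the E2f8 stretch.
Rbl1: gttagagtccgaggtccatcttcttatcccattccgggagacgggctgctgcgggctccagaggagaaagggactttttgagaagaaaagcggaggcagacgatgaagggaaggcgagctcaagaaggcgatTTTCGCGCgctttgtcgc
E2f7: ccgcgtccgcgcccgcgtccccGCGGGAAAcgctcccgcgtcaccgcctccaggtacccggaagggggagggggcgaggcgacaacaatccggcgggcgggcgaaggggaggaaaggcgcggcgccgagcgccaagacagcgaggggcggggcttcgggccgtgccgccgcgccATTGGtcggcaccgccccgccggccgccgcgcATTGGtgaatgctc
E2f3: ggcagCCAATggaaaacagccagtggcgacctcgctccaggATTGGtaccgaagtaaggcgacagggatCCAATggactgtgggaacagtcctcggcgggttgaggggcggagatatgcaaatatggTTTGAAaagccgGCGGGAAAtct
E2f2: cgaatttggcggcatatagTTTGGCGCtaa
E2f8: cgggagcgggttaatTTCAAAtcgggggct

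In KO22, the members moved in both directions. Of the 10 genes, 7 rose against WT (adjusted p under 0.05), namely E2f2, E2f3, E2f4, E2f5, E2f7, E2f8 and Rbl1, against 26.9% of the 20455 genes tested. E2f6 and Rb1 fell, against 26.1% of all genes, and E2f1 did not pass. With the study's further limit of 1.2 on the absolute log2 fold change, 5 members were higher (E2f2, E2f4, E2f7, E2f8 and Rbl1), against 11.4% of all genes, and 0 were lower, against 13.8%. The median log2 fold change was 1.02 over the 10 members and -0.032 over all genes tested. Cycling-cell markers moved with these genes: all 6 of 6 rose in KO22, and their summed level was 704 to 876 CPM in WT, 1929 to 3163 CPM in KO22 and 1657 to 1780 CPM in KO26, with Mki67 and Top2a among them. The other way, 3 of 4 tested fibroblast markers fell in KO22, with a summed level of 4104 to 5869 CPM against 10932 to 13917 CPM in WT and 15096 to 18040 CPM in KO26. Of 4 tested endothelial markers, 2 fell in KO22, Kdr among them (by 6.22 on the log2 scale), and 2 did not pass. The endothelial sum was 153 to 235 CPM in WT, 2.25 to 4.77 CPM in KO22 and 56.3 to 73.6 CPM in KO26. The part of any of these in the result was not tested. In bulk libraries a larger share of cells expressing a gene and more of its RNA per cell cannot be told apart.

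**Figure D1:**
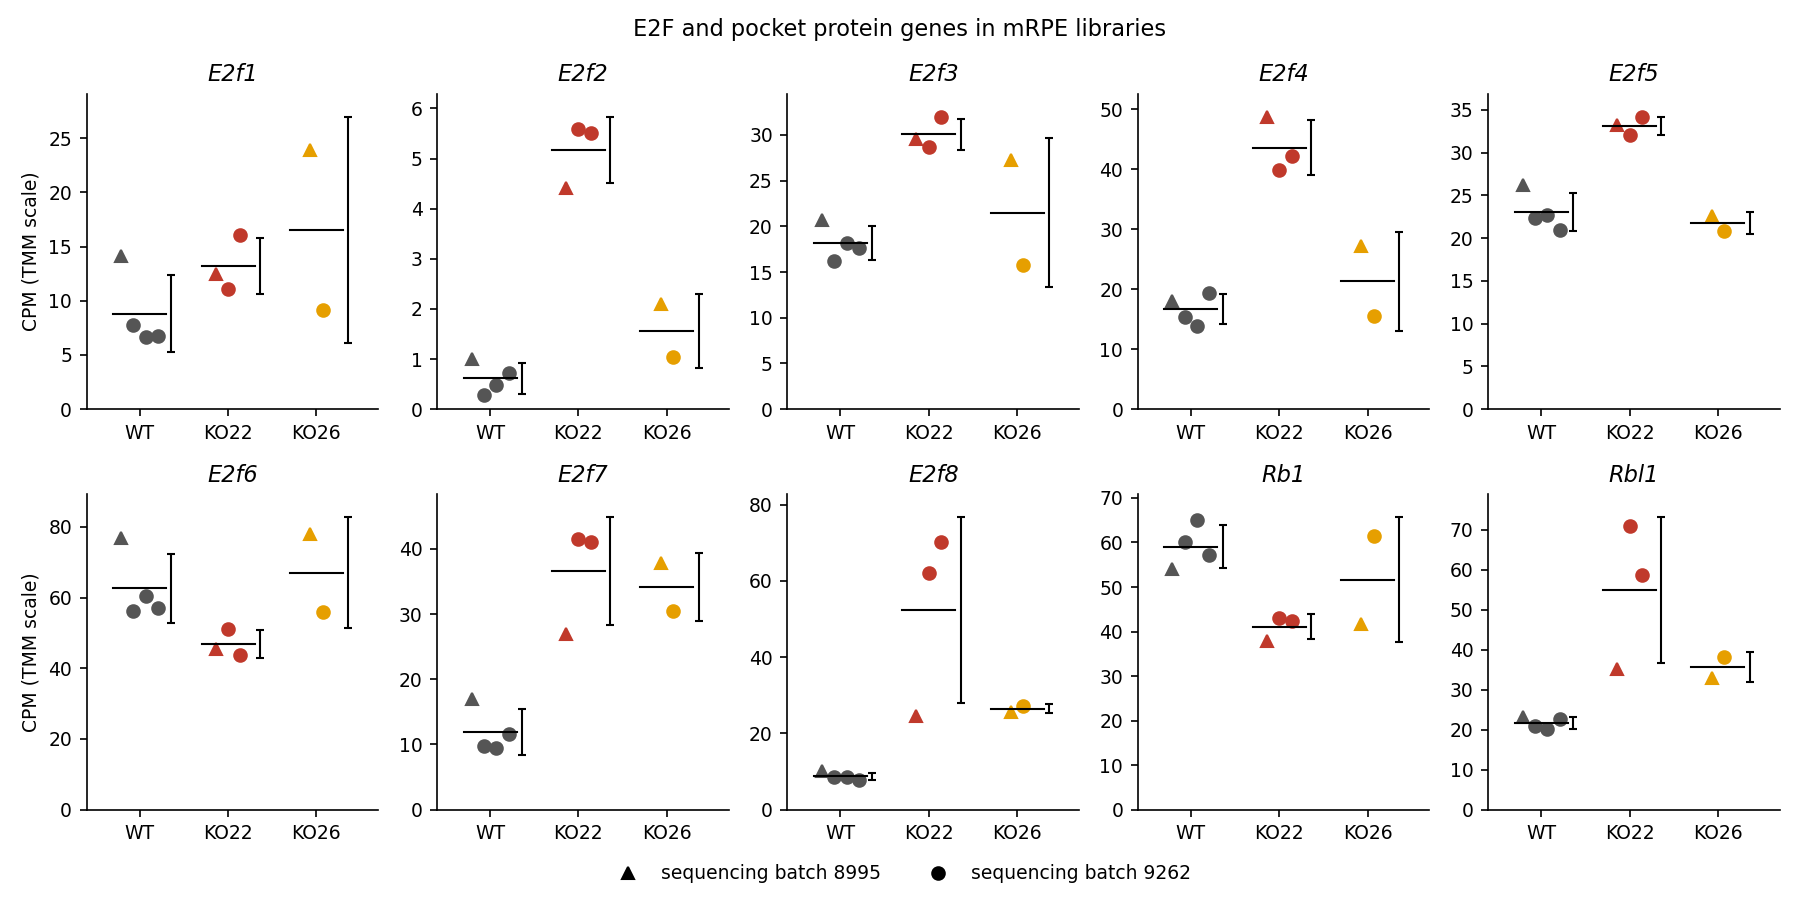
CPM of the 10 genes in each mRPE library, 1 panel per gene with a linear axis from 0; triangles are the library of each group sequenced in batch 8995 and circles those of batch 9262, horizontal lines are group means and bars 1 SD (WT n = 4, KO22 n = 3, KO26 n = 2). E2f8 sits at 7.82 to 10.1 CPM in WT, 24.6 to 70.2 CPM in KO22 and 25.7 to 27.3 CPM in KO26.

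Among the activators, E2f2 (ENSMUSG00000018983, chr4:135899585-135923368, plus strand) showed the largest change of the 3. It gave 0.993, 0.274, 0.491 and 0.718 CPM in the 4 WT libraries and 4.41, 5.59 and 5.51 CPM in the 3 KO22 libraries. The groups did not overlap, as was the case with KO22 higher for 24.8% of all genes tested and with KO22 lower for 25.3%, and the KO22 mean was 8.35 times the WT mean. E2f2 rose by 2.99 on the log2 scale (SE 0.35, 95% confidence interval 2.20 to 3.78, adjusted p = 1.00e-04), from only 4 to 25 counts per WT library. It nevertheless remained the scarcest E2F in KO22, at 0.882 to 1.12 CPM per kb of exon.

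E2f3 (ENSMUSG00000016477, chr13:30090558-30170046, minus strand) gave 20.7, 16.2, 18.2 and 17.7 CPM in WT and 29.6, 28.7 and 32.0 CPM in KO22. Every KO22 library lay above every WT library, and the gene rose by 0.72 on the log2 scale (SE 0.12, adjusted p = 0.00103). The gene shares 656 exon bases with the lncRNA Gm60559 on the opposite strand, and whether the counting used strand is not given in the sources used here.

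E2f1 (ENSMUSG00000027490, chr2:154401326-154411812, minus strand), the best-known activator, gave 14.1, 7.75, 6.68 and 6.75 CPM in WT and 12.5, 11.1 and 16.1 CPM in KO22. The groups overlapped through WT replicate 1 alone, the WT library sequenced in batch 8995. With all 7 libraries the log2 fold change was 0.60 (SE 0.24, 95% confidence interval 0.062 to 1.14, adjusted p = 0.0596). Within batch 8995 the difference in log2(CPM + 0.5) between KO22 and WT was -0.17, and within batch 9262 it was 0.88. Without WT replicate 1 the fold change was 0.91 (adjusted p = 8.87e-05), without KO22 replicate 1 it was 0.93 (adjusted p = 4.37e-05), and DESeq2 on all 7 libraries gave 0.60 (adjusted p = 0.0472). Of the 7 edgeR fits that each left out 1 library, E2f1 passed in these 2 only. Over the 7 fits the log2 fold change went down to 0.27 and adjusted p up to 0.34. In the other settings run on this comparison, adjusted p reached 0.130.

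E2f4 (ENSMUSG00000014859, chr8:106024243-106032003, plus strand), the main E2F of resting cells, gave 18.0, 15.3, 13.8 and 19.4 CPM in WT and 48.7, 39.9 and 42.1 CPM in KO22. It rose by 1.37 on the log2 scale (SE 0.14, adjusted p = 4.09e-05), and the lowest KO22 library was above the highest WT library. The difference was alike within the batches, at 1.41 in batch 8995 and 1.33 in batch 9262. The 1088 other tested genes of chromosome 8 were centred on a log2 fold change of 0.60 (median) in the same comparison, the highest such median among the chromosomes that carry a member. The part of a chromosome-wide shift in the E2f4 value was not tested.

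E2f5 (ENSMUSG00000027552, chr3:14643676-14672404, plus strand), which acts with p130 and p107, gave 26.2, 22.3, 22.7 and 21.0 CPM in WT and 33.2, 32.1 and 34.1 CPM in KO22. It rose by 0.51 on the log2 scale (SE 0.11, adjusted p = 0.00433), without overlap of the groups. E2f5 shares 1731 exon bases with Rbis on the opposite strand, and reads of the 2 genes cannot be told apart if strand was not used.

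E2f6 (ENSMUSG00000057469, chr12:16860874-16890766, plus strand) moved the other way. It gave 77.0, 56.1, 60.6 and 57.0 CPM in WT and 45.6, 51.2 and 43.7 CPM in KO22, with no overlap. E2f6 fell by 0.42 on the log2 scale (SE 0.13, adjusted p = 0.0181). The 775 other tested genes of chromosome 12 were centred on a log2 fold change of -0.50 (median) in this comparison, which is as large as the change of E2f6, and its part was not tested.

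The atypical repressors E2f7 and E2f8 both rose. E2f7 (ENSMUSG00000020185, chr10:110581300-110623245, plus strand) gave 17.0, 9.74, 9.43 and 11.6 CPM in WT and 27.0, 41.6 and 41.1 CPM in KO22. The groups did not overlap, and E2f7 rose by 1.62 on the log2 scale (SE 0.23, adjusted p = 3.65e-04). The 967 other tested genes of chromosome 10 were centred on -0.54 (median log2 fold change) in KO22. For the members not on chromosomes 8, 10 or 12, the chromosome medians ran from -0.32 (chromosome 7, E2f8) to 0.26 (chromosome 4, E2f2). The part of chromosome-wide shifts in these members' values was not tested.

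E2f8 (ENSMUSG00000046179, chr7:48516176-48531452, minus strand) gave 10.1, 8.64, 8.64 and 7.82 CPM in WT and 24.6, 62.2 and 70.2 CPM in KO22. All KO22 libraries were above all WT libraries, but KO22 replicate 1 was far below the other 2. E2f8 rose by 2.50 on the log2 scale (SE 0.28, adjusted p = 7.55e-05). The difference in log2(CPM + 0.5) was 1.25 within batch 8995 and 2.91 within batch 9262. A like gap between batches was seen for E2f7 (0.65 and 1.97) and Rbl1 (0.59 and 1.58), and the cycling-cell markers of KO22 summed to 1929 CPM in replicate 1 against 3163 and 2995 CPM in replicates 2 and 3. E2f8 shares 1128 exon bases with the lncRNA Gm2788 on the opposite strand.

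The pocket protein genes split. Rb1 (ENSMUSG00000022105, chr14:73421113-73563507, minus strand) gave 54.0, 60.1, 65.1 and 57.1 CPM in WT and 37.9, 43.1 and 42.3 CPM in KO22. The ranges did not overlap, and Rb1 fell by 0.51 on the log2 scale (SE 0.10, adjusted p = 0.00244). The difference was the same in both batches, at -0.50 in each. Rb1 shares 488 exon bases with Rcbtb2 and 408 with Lpar6, both on the opposite strand.

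Rbl1 (ENSMUSG00000027641, chr2:156987813-157046475, minus strand), the gene of p107 and itself an E2F target, gave 23.1, 20.8, 20.1 and 22.7 CPM in WT and 35.1, 70.9 and 58.7 CPM in KO22. It rose by 1.32 on the log2 scale (SE 0.19, adjusted p = 3.10e-04), and the groups did not overlap. Rbl1 shares 329 exon bases with the processed pseudogene Gm14277 on the opposite strand. Per kb of exon, Rbl1 went from 2.74 to 3.14 CPM in WT to 4.78 to 9.66 CPM in KO22, and Rb1 from 4.47 to 5.40 CPM to 3.14 to 3.58 CPM. On this length scale the level of Rb1 was above that of Rbl1 in every WT library and below it in every KO22 library. In CPM without the length, Rb1 stayed above Rbl1 in KO22 replicate 1 (37.9 against 35.1 CPM). The order in that library thus rests on the exon lengths used.

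In the second clone, fewer members passed, with only 2 libraries to test. The paper removed both KO26 libraries as outliers, and proposes biological heterogeneity or technical anomalies as the reason. A smaller number of calls here is therefore not a measure of a smaller change. In KO26, 2 of the 10 members rose against WT, against 2.36% of the 20737 genes tested, and 0 fell, against 1.13%. At an unadjusted p under 0.05, 4 members were higher, against 11.1% of all genes, and 0 lower, against 9.02%. DESeq2 called 3 higher, against 5.44% of the genes to which it gave an adjusted p, and 0 lower, against 3.49%. E2f7 gave 37.9 and 30.5 CPM in the 2 KO26 libraries and rose by 1.47 on the log2 scale (SE 0.26, adjusted p = 0.0164). E2f8 gave 25.7 and 27.3 CPM and rose by 1.66 (SE 0.31, adjusted p = 0.0193). For both genes the KO26 libraries lay above all 4 WT libraries, as they did for 11.9% of all genes. Adjusted p went over 0.05 for both without KO26 replicate 1 (0.118 for E2f7 and 0.165 for E2f8) and without any of WT replicates 2, 3 and 4 (0.0603 to 0.0621 for E2f7 and 0.0688 to 0.0723 for E2f8), while the log2 fold changes stayed between 1.38 and 1.87 for E2f7 and between 1.47 and 2.14 for E2f8. The KO22 and KO26 comparisons share the WT libraries.

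The other members of KO26 did not pass. Rbl1 gave 33.0 and 38.3 CPM, above every WT library (log2 fold change 0.77, SE 0.21, adjusted p = 0.0764), and E2f2 gave 2.09 and 1.04 CPM, also above every WT library (1.22, SE 0.45, adjusted p = 0.169). E2f1 gave 23.9 and 9.14 CPM, E2f3 27.3 and 15.7 CPM, and E2f4 27.1 and 15.5 CPM. In these 3 genes KO26 replicate 1 was the higher library and the groups overlapped. E2f5 (22.6 and 20.8 CPM), E2f6 (78.1 and 55.9 CPM) and Rb1 (41.7 and 61.5 CPM) overlapped WT as well, with log2 fold changes of -0.12, 0.023 and -0.15.

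The clones were also compared with each other. Of the 10 members, 3 were higher in KO22 than in KO26, against 16.3% of all genes, and 0 were lower, against 18.1%. At an unadjusted p under 0.05, 6 were higher, against 21.2% of all genes, and 2 lower, against 22.9%. DESeq2 called 5 higher, against 18.1%, and 1 lower, against 18.7%. E2f2 was higher in KO22 by 1.81 on the log2 scale (SE 0.44, adjusted p = 0.00911), E2f4 by 1.11 (SE 0.21, adjusted p = 0.00241) and E2f5 by 0.63 (SE 0.15, adjusted p = 0.00916). In all 3 genes every KO22 library was above every KO26 library, as was the case for 23.4% of all genes. The E2f2 call was lost without KO26 replicate 2 (1.47, adjusted p = 0.0795), and with the 5 libraries of the clones alone the E2f2 (adjusted p = 0.0585) and E2f5 (adjusted p = 0.102) calls were lost.

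E2f7 was the member for which the clones were closest among those that rose in both, with a difference of 0.15 and a 95% confidence interval of -0.47 to 0.77, which leaves room for a difference of either sign. E2f8 differed by 0.86 (95% confidence interval 0.11 to 1.61, adjusted p = 0.0733) and Rbl1 by 0.55 (0.042 to 1.06, adjusted p = 0.0890). Without KO22 replicate 1, the library with the lower cycling-cell markers, 7 members were higher in KO22 than in KO26, against 23.6% of all genes in that fit, and 1 was lower, against 21.5%. E2f7 (0.57, adjusted p = 0.00934), E2f8 (1.39, adjusted p = 3.78e-06) and Rbl1 (0.88, adjusted p = 2.33e-04) were among the 7. KO22 replicate 1 had the lowest KO22 level of E2f7, E2f8 and Rbl1, so that leaving it out raised their KO22 means. Over the fits that each left out 1 library, 2 to 7 members were higher in KO22, and this fit gave the most.

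**Figure D2:**
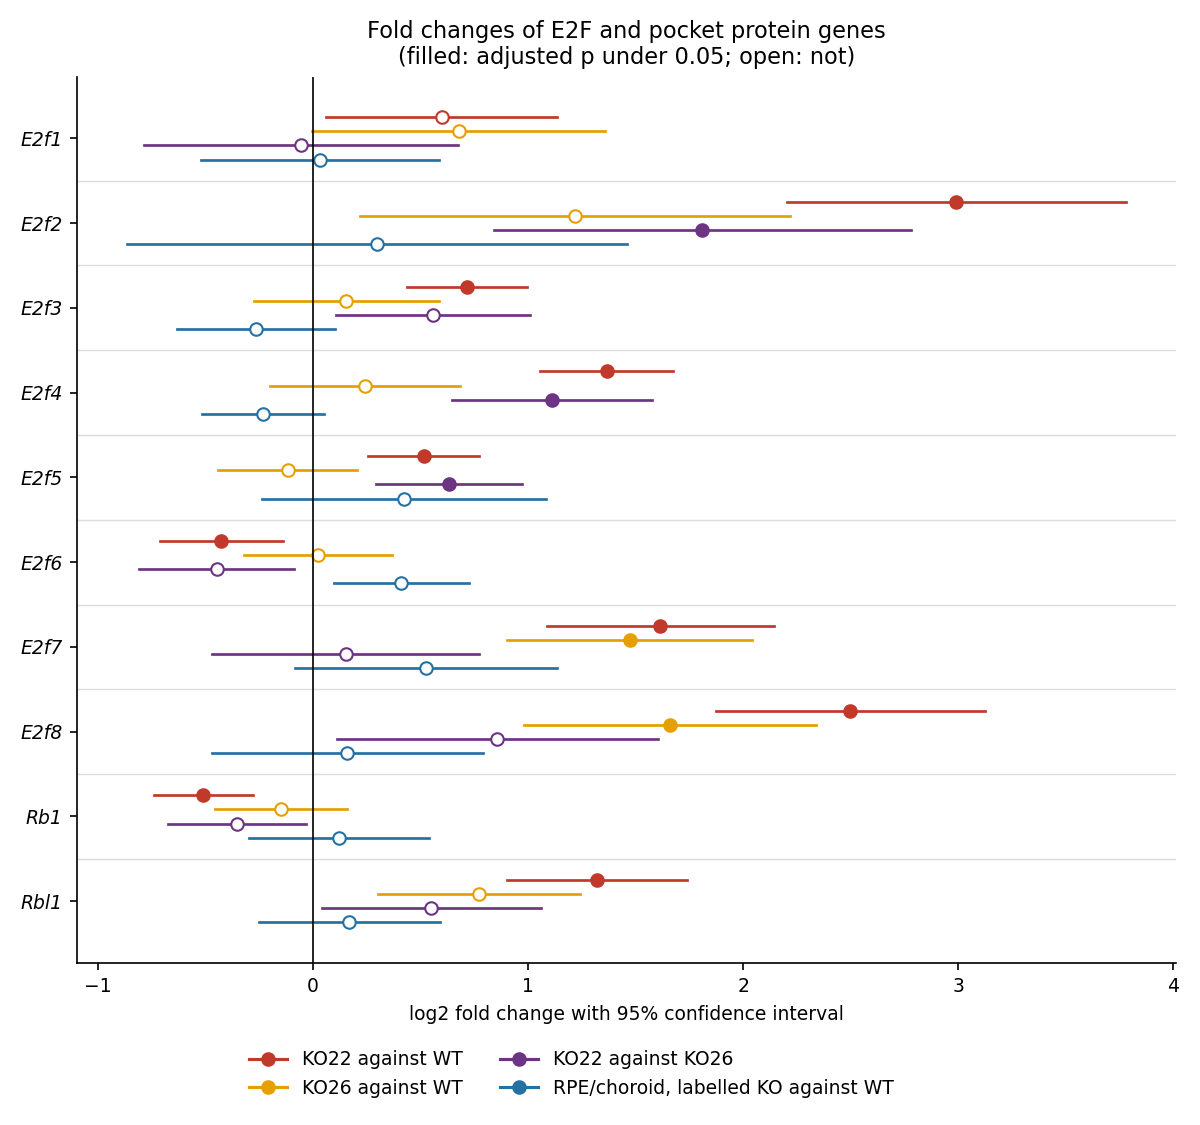
Log2 fold changes of the 10 genes in the 4 comparisons (x axis), with bars for the 95% confidence interval; filled points have an edgeR adjusted p under 0.05 and open points do not. KO22 against WT has 9 filled points, KO26 against WT has E2f7 and E2f8, KO22 against KO26 has E2f2, E2f4 and E2f5, and RPE/choroid has none.

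The balance of the E2F family was then read per length, as the share of each class in the summed CPM per kb of E2f1 to E2f8 within a library. This sum was 20.8 to 27.9 CPM per kb in WT, 37.9 to 48.3 in KO22 and 26.6 to 38.0 in KO26. The atypical repressors E2f7 and E2f8 made up 12.3% to 13.2% of it in WT, 19.6% to 35.6% in KO22 and 23.2% to 31.2% in KO26, without overlap between WT and either clone. The activators E2f1, E2f2 and E2f3 made up 25.0% to 29.0% in WT, 21.5% to 26.2% in KO22 and 21.6% to 32.5% in KO26, so that their ranges overlapped. E2f6 made up 22.2% to 23.9% in WT, 7.54% to 10.0% in KO22 and 17.1% to 17.5% in KO26. E2f4 and E2f5 together made up 34.7% to 40.2% in WT and 27.3% to 29.7% in KO26, and 32.8% to 44.2% in KO22. A share depends on the whole sum, so a lower share need not mean a lower level of the gene. In KO26 against WT the log2 fold changes were 0.023 for E2f6, 0.24 for E2f4 and -0.12 for E2f5, none past the threshold. These shares rest on the exon length of all annotated transcripts of a gene.

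**Figure D3:**
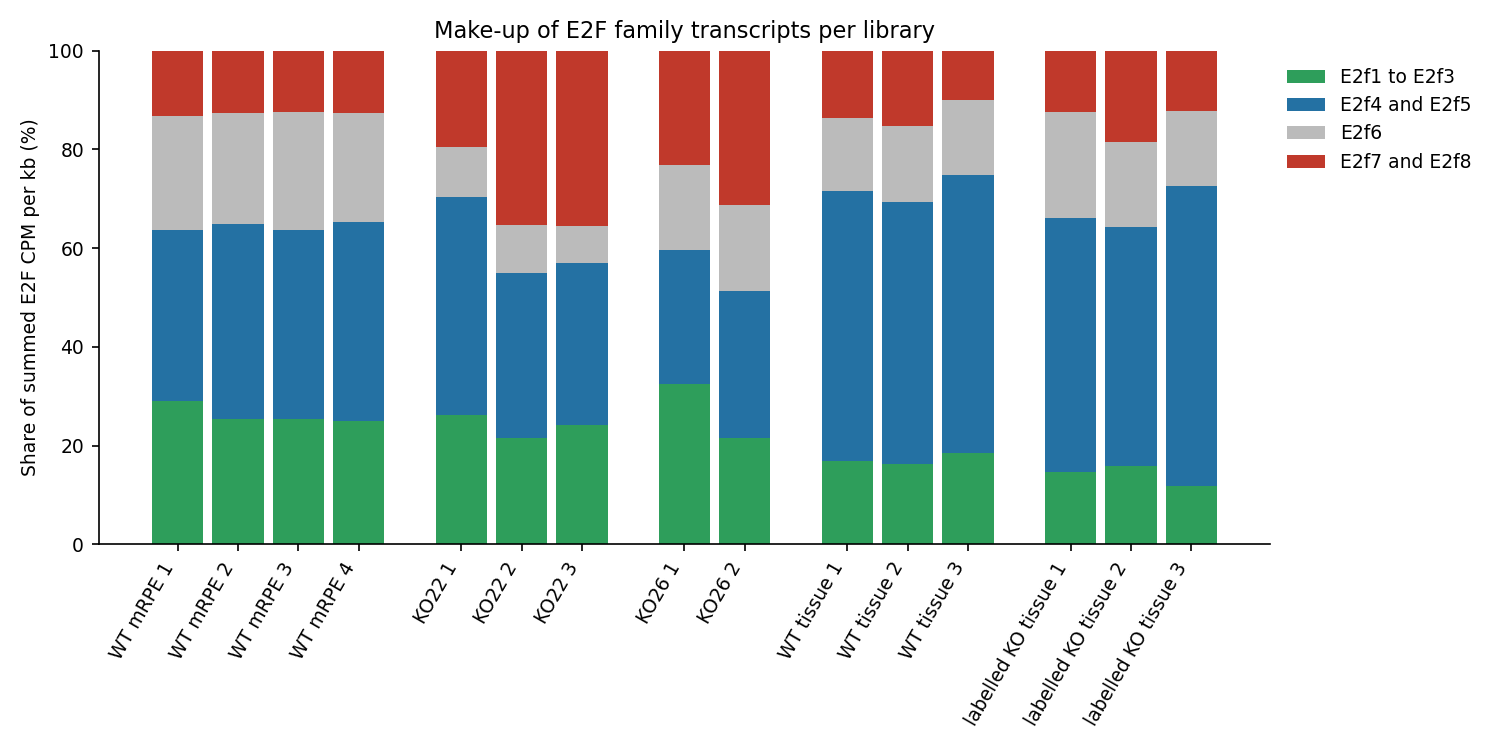
Share of 4 E2F classes (y axis, percent) in the summed CPM per kb of E2f1 to E2f8, 1 bar per library for the 15 libraries. The share of E2f7 and E2f8 is 12.3% to 13.2% in the WT mRPE libraries, at least 19.6% in the KO22 and KO26 libraries and 9.97% to 18.4% in RPE/choroid.

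In WT mRPE, the order of the levels per kb of exon was E2f5 (mean 5.77 CPM per kb), E2f6 (5.22), Rb1 (4.90), E2f3 (3.35), Rbl1 (2.95), E2f4 (2.88), E2f1 (2.55), E2f8 (1.58), E2f7 (1.32) and E2f2 (0.124). Over the 4 libraries the ranges of neighbours overlapped from E2f5 to Rb1, from E2f3 to E2f1 and between E2f8 and E2f7. Rb1 and E2f3 did not overlap, nor did E2f1 and E2f8, and E2f2 was below every other member in each library. In KO22 the highest means were those of E2f8 (9.40), E2f5 (8.30), E2f4 (7.54) and Rbl1 (7.48), with ranges that overlapped, and E2f8 spread from 4.42 to 12.6 CPM per kb.

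Several members also varied together over the 9 mRPE libraries. These libraries share groups and batches, so the following values of Pearson's r of log2 CPM only describe them. E2f8 and Rbl1 had r = 0.978, E2f2 and E2f4 r = 0.944, and E2f7 and E2f8 r = 0.932. Rb1 ran against E2f4 (r = -0.953) and E2f3 (r = -0.947). E2f6 stood furthest apart, with r among the members from -0.583 (E2f5) to 0.296 (Rb1). E2f1 had its highest r among the members for E2f7 (0.744). Over all tested genes, those most like E2f1 were Mlf2, Gatad1, Wdr38, Trappc2l and H2bc13 (r from 0.979 to 0.988), those most like E2f2 were Rbmx2, Tuba1c, Yju2b, Acot7 and Nans (0.984 to 0.990), and those most like Rb1 were Heca, Gm48765, Zcchc7, Mcm9 and a gene without a symbol (0.982 to 0.992).

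The proteins that work with the family were followed as lists, whose counts stand beside the shares of all genes given above (26.9% higher and 26.1% lower in KO22, 2.36% and 1.13% in KO26). E2F1 to E2F6 bind DNA with a DP partner. In KO22, Tfdp1 rose by 1.41 on the log2 scale (SE 0.13, adjusted p = 2.27e-05) and Tfdp2 by 0.95 (SE 0.11, adjusted p = 7.57e-05), while Rbl2, the gene of p130, fell by 0.34 (SE 0.10, adjusted p = 0.0209). Tfdp1 gave 73.2 to 102 CPM in WT and 208 to 232 CPM in KO22. In KO26 the log2 fold changes were 0.18 for Tfdp1, 0.0088 for Tfdp2 and -0.35 for Rbl2, none past the threshold (adjusted p = 0.595, 0.980 and 0.177), and the difference between the clones passed for Tfdp1 (1.24, adjusted p = 6.65e-04) and Tfdp2 (0.94, adjusted p = 6.66e-04).

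The MuvB core joins E2F4 and p130 or p107 in resting cells and B-MYB or FOXM1 in dividing ones. Of the 5 core genes, 3 rose and 1 fell in KO22, and 0 passed in KO26. Of the partners, Mybl2, which encodes B-MYB, and Foxm1 both rose in KO22, and Foxm1 alone rose in KO26 (by 1.57 on the log2 scale, adjusted p = 0.0125). Lin9 rose 3.04-fold (adjusted p = 1.12e-05) and Lin54, which contacts the CHR element, by 1.23 on the log2 scale (adjusted p = 1.91e-05), while Lin52 fell by 0.80 (adjusted p = 0.0118). Of the 10 cyclin and kinase genes that act on pocket proteins, 7 rose and 1 fell in KO22, and 4 rose and 0 fell in KO26. Ccna2, the S phase cyclin A2, rose by 2.38 in KO22 (adjusted p = 1.47e-05) and by 1.17 in KO26 (adjusted p = 0.0358). Cdk6, a kinase that phosphorylates RB with D cyclins, rose by 1.67 in KO22 (adjusted p = 2.68e-05) and by 0.82 in KO26 (adjusted p = 0.0405). Ccnd2, a D cyclin, fell by 0.34 in KO22 (adjusted p = 0.0458).

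The CDK inhibitors, which keep pocket proteins active, moved in both directions in KO22, with 4 of 7 higher and 3 lower. Cdkn2b (p15) gave 154, 435 and 268 counts in KO22 and 9, 5, 0 and 4 in WT (adjusted p = 2.43e-06). Cdkn2a (p16 and p19ARF) gave 29, 50 and 45 counts in KO22 and 0, 1, 0 and 0 in WT (adjusted p = 2.10e-05). Cdkn1c (p57) gave 0 counts in all KO22 libraries and 40, 19, 15 and 14 in WT (adjusted p = 2.44e-04), and Cdkn1b (p27) fell by 1.88 on the log2 scale (adjusted p = 5.49e-06). In KO26, 1 of the 7 was higher and 0 lower, and Cdkn2b and Cdkn2a gave at most 2 counts per library.

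Pocket proteins silence genes through corepressors, of which 5 of 9 rose and 3 fell in KO22 and 0 of 9 passed in KO26. Suv39h1, a histone H3K9 methyltransferase, rose by 1.75 (adjusted p = 9.07e-06) and Sin3b by 1.10 (adjusted p = 2.07e-05), while Kdm5a, an RB-binding histone demethylase, fell by 0.96 (adjusted p = 1.40e-04) and Arid4a by 0.69 (adjusted p = 0.00288). Of the 9 genes whose proteins join E2F6 in its Polycomb complex, 2 rose (Yaf2 by 1.86, adjusted p = 8.51e-06, and L3mbtl2 by 1.29, adjusted p = 4.39e-04) and 2 fell (Ring1 by 1.11, adjusted p = 0.00296, and Rybp by 0.64, adjusted p = 0.00794) in KO22, and 0 passed in KO26. These shares of 9 lie near those of all genes in KO22. The germline genes that E2F6 is known to silence were barely counted. Of 6, 3 could be tested, and in KO22, where E2f6 fell, 0 rose and 2 fell: Stag3 gave 2.19 to 3.34 CPM in WT and 0.390 to 0.624 CPM in KO22 (adjusted p = 3.85e-04), and Slc25a31 gave at most 8 counts in any mRPE library (adjusted p = 0.0361).

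The genes that E2Fs are known to drive at the G1/S transition were all higher in KO22. All 30 of 30 rose, 25 of them past the limit of 1.2, with log2 fold changes from 0.99 (Orc1) to 3.37 (Cdc45) and a median of 1.93. Their summed level was 803 to 970 CPM in WT, 1888 to 3821 CPM in KO22 and 1413 to 1909 CPM in KO26. Cdc45, a subunit of the replicative helicase, gave 5.00 to 6.99 CPM in WT and 43.4 to 71.5 CPM in KO22 (adjusted p = 2.17e-06), and Gins2, of the same helicase, gave 21.7 to 27.5 and 96.2 to 146 CPM (adjusted p = 4.18e-06). In KO26, 10 of 30 rose and 0 fell, with a median log2 fold change of 1.01 and all 30 above 0. Between the clones, 19 of 30 were higher in KO22, against 16.3% of all genes, and 0 lower. In KO26 the cycling-cell markers moved with them, 5 of 6 higher.

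**Figure D4:**
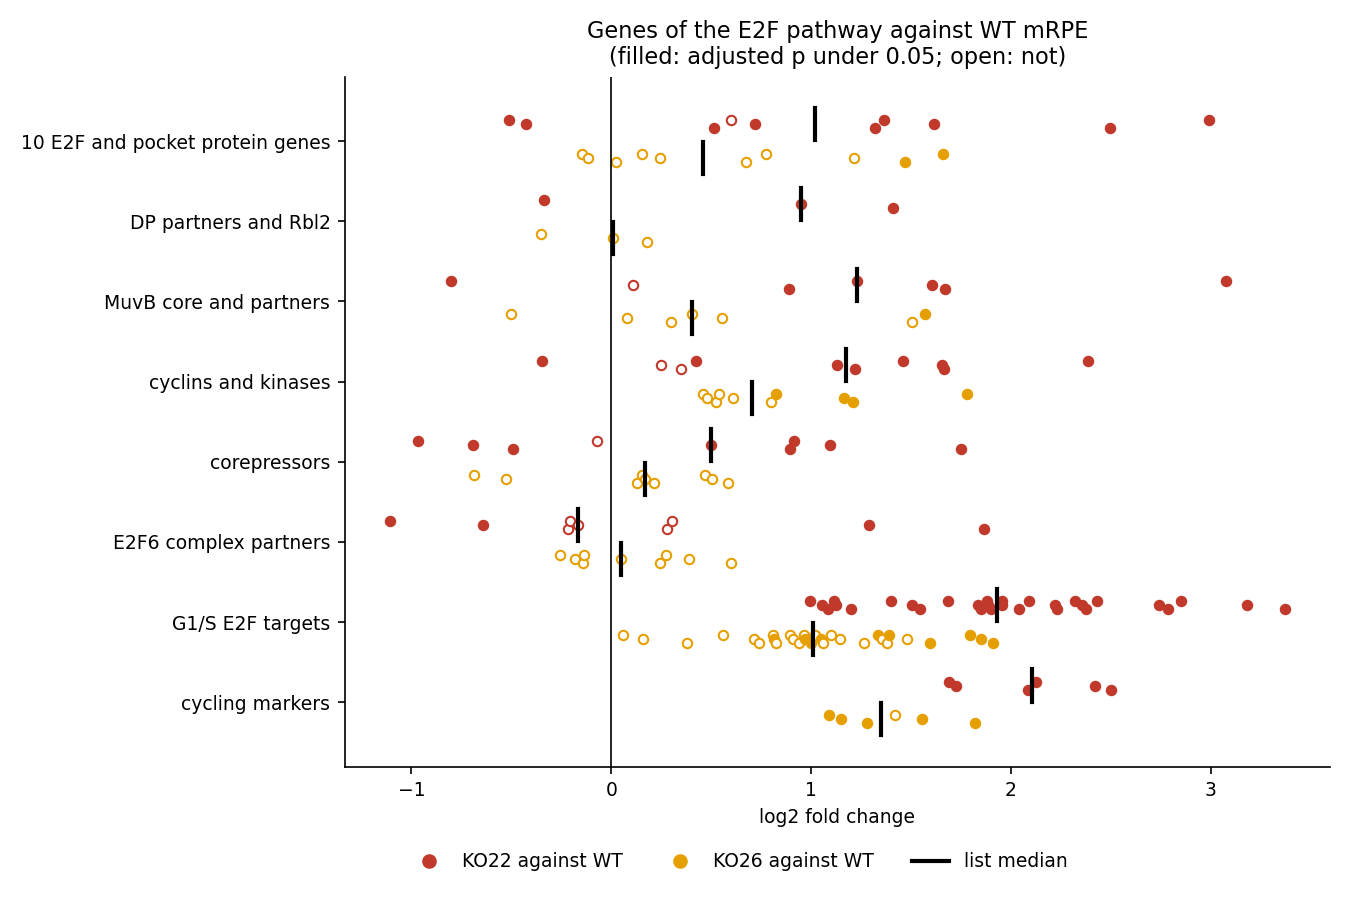
Log2 fold changes against WT (x axis) of every tested gene of the family, of 6 lists of its partners and targets and of the cycling-cell markers, with red points for KO22 and orange for KO26, filled where the adjusted p is under 0.05, and a black line at the list median. All 30 G1/S targets are filled and above 0.9 in KO22, and in KO26 all 30 are above 0, with 10 filled. The CDK inhibitors (-7.39 to 6.86 in KO22) and the germline genes (-2.33 to 0.35 in KO22) are not drawn.

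In RPE/choroid, no member passed the test. Between the mice labelled Prom1-KO and WT, 0 of 10 members were higher, against 0% of the 24926 genes tested, and 0 were lower, against 0.193%. At an unadjusted p under 0.05, 1 member was higher, against 3.98% of all genes, and 0 lower, against 4.31%. DESeq2 called 0 members in either direction, against 0.602% of all genes higher and 1.27% lower. The summed level of E2f1 to E2f8 was 4.51 to 4.65 CPM per kb in WT, a value set on the scale of this table alone. The most abundant member per kb was Rb1, with 1.73 to 2.14 CPM per kb in WT, followed by E2f5 with 1.34 to 1.44 and E2f4 with 1.11 to 1.14, and none of these ranges overlapped. E2f1 (0.778 to 0.816 CPM) and E2f2 (0.152 to 0.364 CPM, 9 to 25 counts) had the fewest counts of the family.

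E2f6, which fell in KO22, gave 8.02, 8.63 and 8.24 CPM in WT tissue and 12.2, 9.71 and 11.2 CPM in the labelled Prom1-KO tissue. The groups did not overlap, but the log2 fold change of 0.41 (SE 0.13, unadjusted p = 0.0170) did not pass over all genes (adjusted p = 0.443). E2f4 gave 6.40, 6.56 and 6.38 CPM in WT and 5.36, 5.52 and 5.61 CPM in the labelled Prom1-KO tissue (log2 fold change -0.23, 95% confidence interval -0.52 to 0.054, adjusted p = 0.691). E2f3 gave 2.73, 2.72 and 2.89 CPM in WT and 2.29, 2.43 and 2.22 CPM in the labelled Prom1-KO tissue (-0.26, adjusted p = 0.726). With E2f7, 4 of the 10 members had groups that did not overlap, against 14.6% of all genes tested, without an adjusted p under 0.05.

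Prom1-KO replicate 3, the library with the most mitochondrial counts, set some of these values. E2f5 gave 11.1 CPM in Prom1-KO replicate 3 and 5.21 to 5.92 CPM in the other 2 libraries of its group, and its log2 fold change was 0.42 with that library and 0.0073 without it. Rb1 likewise gave 31.8 CPM there and 21.6 to 23.0 CPM in the other 2, and its log2 fold change was 0.12 with the library and -0.082 without it. E2f7 gave 2.38, 2.03 and 1.37 CPM in WT and 2.45, 3.38 and 2.49 CPM in the labelled Prom1-KO tissue (0.53, 95% confidence interval -0.083 to 1.14, adjusted p = 0.674). E2f8 was at 1.66 to 2.67 CPM in WT and 1.71 to 2.69 CPM in the labelled Prom1-KO tissue, and Rbl1 at 2.65 to 3.64 and 3.38 to 3.88 CPM.

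No gene of the lists around the family passed in RPE/choroid either. Of the 30 G1/S targets, 0 were higher and 0 lower, with a summed level of 126 to 133 CPM in WT and 140 to 147 CPM in the labelled Prom1-KO tissue, and of the 6 cycling-cell markers 0 passed, with summed levels of 36.6 to 69.2 and 51.3 to 84.3 CPM. Cell type markers did differ: 3 of 12 RPE markers were lower (Rpe65, Lrat and Rdh5). Of the 12, Rpe65 had the lowest log2 fold change, -6.06, while their median was -0.74 and 2 were above 0. The 12 summed to 1668 to 2470 CPM in WT and 759 to 1059 CPM in the labelled Prom1-KO tissue. Photoreceptor markers ran from 38.2 to 1088 CPM in WT and from 18.8 to 527 CPM in the labelled Prom1-KO tissue. The part of a differing cell makeup in the members' levels was not tested.

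**Figure D5:**
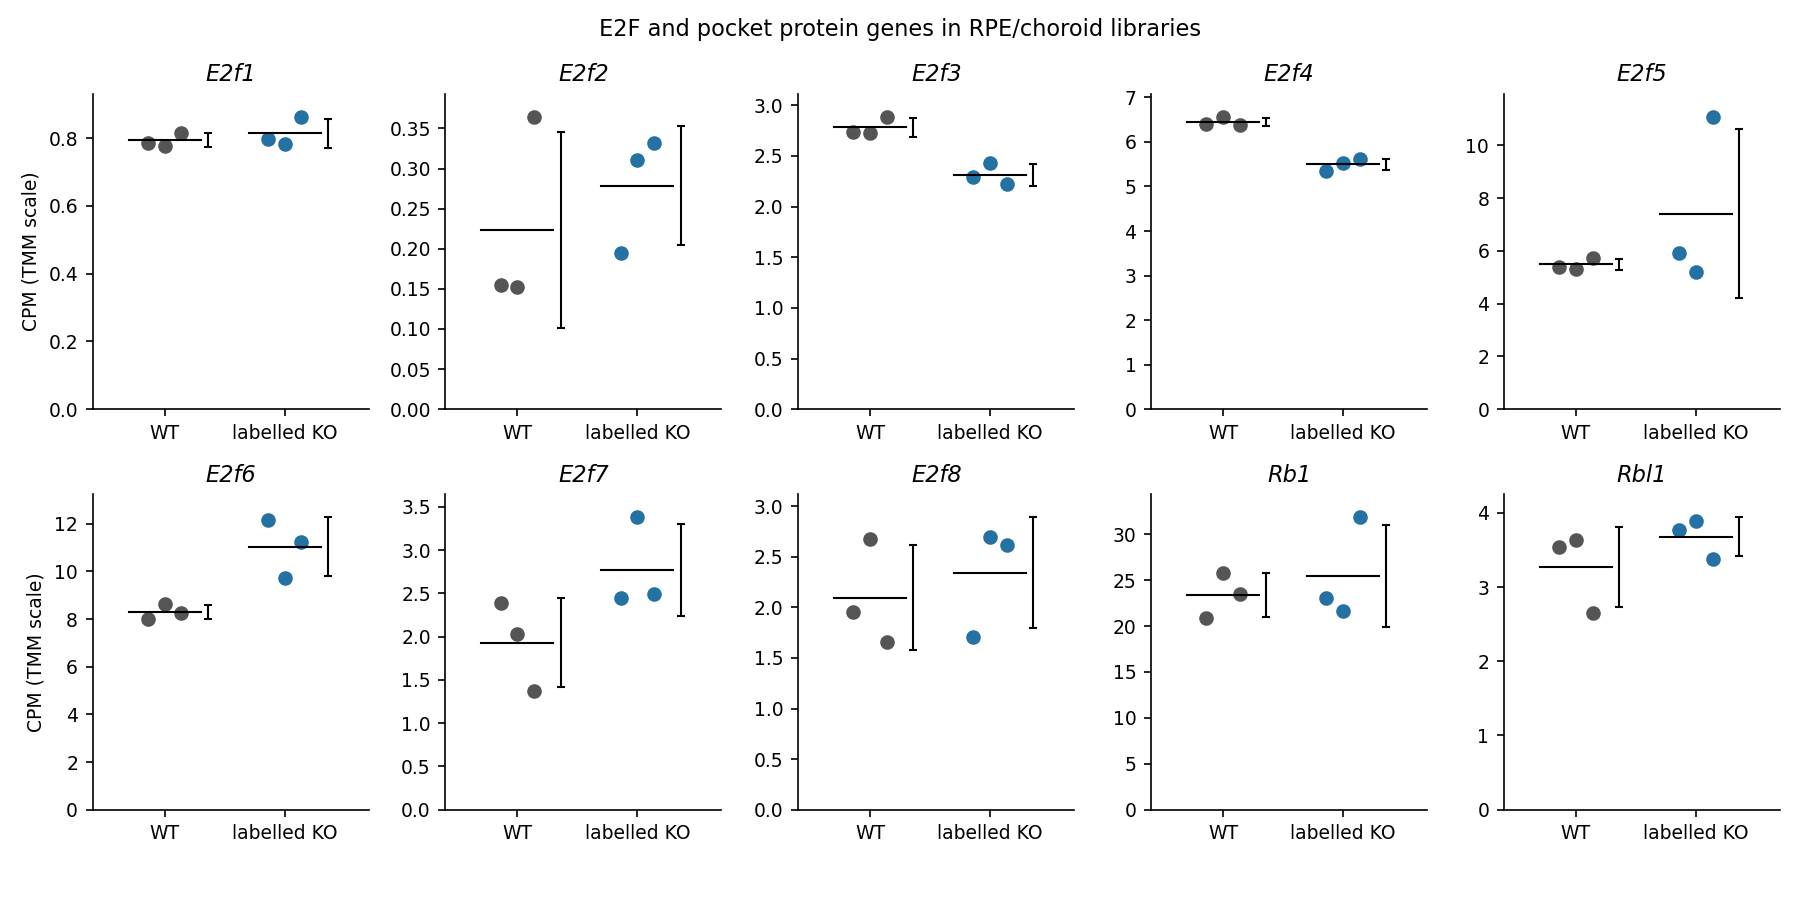
CPM of the 10 genes in each RPE/choroid library, 1 panel per gene with a linear axis from 0; lines are group means and bars 1 SD (n = 3 each). E2f6 sits at 8.02 to 8.63 CPM in WT and 9.71 to 12.2 CPM in the tissue labelled Prom1-KO, and E2f5 has 1 library at 11.1 CPM in the labelled Prom1-KO group.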

How the data were processed

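RNA was sequenced from mRPE cells (9 libraries in batches 8995 and 9262) and RPE/choroid (6 libraries in batch 12965). The authors trimmed reads with Trim Galore 0.6.7, aligned them with STAR to mm39, counted reads per gene and deposited the counts as 2 tables, 1 for mRPE and 1 for RPE/choroid. DESeq2 1.42.0 is also named in the submitters' processing notes. Whether the counting used strand is not given in the sources used here. The paper and the labels name different stranded kits. Normalized versions of both tables were not used.

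Counts were tested with edgeR 4.0.16 in R 4.3.3 (quasi-likelihood test with TMM scaling; a gene needed 5 counts in 3 or more of the fitted libraries; p-values were adjusted by Benjamini-Hochberg over every gene tested and called at 0.05). KO22 against WT was fitted over 7 libraries and the KO26 comparisons over all 9, both with batch as a term. RPE/choroid was fitted apart, so no test was made across tables. CPM are on the TMM scale, and levels between genes are per kb of exon (GENCODE vM39). Library totals limit precision, and members with few counts have wide intervals. The steps were tested on simulated data.

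All 10 members are named, with Prom1, Rbl2, Tfdp1, Tfdp2, of each other pathway list up to 2 risers and 2 fallers in KO22, taken by adjusted p, and the 5 genes most alike in pattern to E2f1, E2f2 and Rb1. Orc1, Rpe65, Lrat, Rdh5, Mki67, Top2a, Kdr, Mybl2 and Foxm1 were named after their values were seen. The members and lists were chosen with earlier results of these data known. Alternatives were DESeq2, its size factors, other count filters, no batch term, other sets of libraries, the study's fold limit and leaving out each library.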

Additional observations from a re-analysis of the deposited data

Results flagged for a closer look

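E2f1 was set apart in WT mRPE by 1 library: WT replicate 1 gave 14.1 CPM, and the other 3 gave 6.68 to 7.75 CPM, a gap of 0.856 of the group's range, above Dixon's 95% critical value for 4 samples. Chance gives such a gap in about 0.05 of groups, and 10 genes were looked at. WT replicate 1 is the WT library of batch 8995, in which KO26 replicate 1 also gave the higher E2f1 level of its group, 23.9 against 9.14 CPM. The KO22 library of that batch, replicate 1, did not stand above its group, with 12.5 CPM against 11.1 and 16.1 CPM. The part of the batch was not tested for E2f1 alone.

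E2f2, E2f4 and E2f5 differed between the clones themselves, by 1.81, 1.11 and 0.63 on the log2 scale (KO22 minus KO26), each by the test of the difference. The median difference was 0.59 over the 1094 other tested genes of chromosome 8, which carries E2f4, 0.31 over the 1132 others of chromosome 3, which carries E2f5, and 0.22 over the 1086 others of chromosome 4, which carries E2f2. The part of these chromosome-wide differences was not tested.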

How the results depend on the processing

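KO22 against WT kept 7 or 8 members higher and 2 lower whichever library was left out, and with the study's fold limit 5 were higher and 0 lower. KO26 against WT depended on the setting: the 725 genes called became 1600 with DESeq2, 255 without the batch term and 3146 with the libraries of WT and KO26 alone, which called 4 members higher in place of 2 and gave E2f6 a log2 fold change of -0.044. Leaving out 1 library at a time gave 137 to 3578 genes and 0 to 4 members higher, and turned the sign of fold changes that had not passed, within -0.18 to 0.50 for E2f3, -0.051 to 0.56 for E2f4, -0.11 to 0.17 for E2f6 and -0.37 to 0.019 for Rb1.

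KO22 against KO26, with 3 members higher and 0 lower of 7132 genes called, gave 1 lower (E2f6) with DESeq2 size factors, with DESeq2 or with the filterByExpr filter, 5 higher with DESeq2, 1 higher with the fold limit, and 1 higher of 3163 genes with the libraries of the clones alone, where E2f7 was at -0.013. Leaving out 1 library at a time gave 2 to 7 members higher and 0 to 1 lower, and E2f1 ran from -0.49 to 0.41. In RPE/choroid, 0 members passed in every setting run, a fit without mitochondrial genes and nuclear rRNA, chosen after seeing the data, included; the 48 genes called became 447 with DESeq2 and 9 to 41 without 1 library, and E2f1 ran from -0.020 to 0.062 and Rb1 from -0.082 to 0.23. Apart from settings that leave out libraries or call genes by another rule, the cause of these differences was not tested.

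The labels give no replicate numbers shared between groups, and the mRPE fits were blocked by batch, where batch 8995 holds 1 library of each group. KO26 with 2 libraries and E2f2 with few counts limit precision, and with 1 library left in a group the spread is taken from the other groups.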
